A study of Mus musculus with 18 samples.

Results

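The electrical genes of the heart were described across Kcp knockout and wild-type mice with and without pressure overload. The set held 34 genes for sodium, calcium, potassium and pacemaker channels, gap junction connexins and accessory subunits of the sodium pump, picked by name for their cardiac function out of 34714 genes in the table. The choice was made with earlier results of these data known. RNA came from hearts of C57 mice, with 4 libraries of wild-type sham, 5 of wild-type TAC, 4 of knockout sham and 5 of knockout TAC. TAC (transverse aortic constriction) narrows the aorta so that the left ventricle pumps against a raised pressure, and sham mice had the operation without it. The product of Kcp, kielin/chordin-like protein, is secreted and modulates BMP signalling, and the study asked how its loss bears on remodelling under pressure load. The labels name the genotypes only as WT and KO, and the allele, the sex and age of the mice, the heart chamber and the time after surgery are details that no source used here gives. Nothing in the labels says that each library is a separate mouse, so p-values measure the spread between these samples, which may be in part technical.

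The cardiac action potential begins with sodium entry, is held up by calcium entry and ends with potassium leaving the cell through several channel families. In the mouse ventricle the fast transient outward current and related voltage-gated potassium currents dominate repolarization, the inward rectifiers set the resting potential, and ATP-sensitive channels couple membrane potential to metabolism. Connexins join neighbouring myocytes electrically, and the sodium pump restores the ion gradients. A loss of repolarizing potassium currents with a longer action potential is a textbook feature of the hypertrophied and failing heart.

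Values are FPKM, fragments scaled by transcript length and library total, and a log2 change is a difference of log2(FPKM + 1), which understates the change of genes at low values. A gene was tested if it reached 1 FPKM in at least 3 of the 17 libraries in the model, which kept 11937 genes and 31 of the 34 members. "Passed" means a Benjamini-Hochberg adjusted p under 0.05 in limma, adjusted over all 11937 genes. The model does not use knockout sham replicate 2, whose library name is a compound of the names of replicates 3 and 4. For 22 of the 34 members its value lay between those of replicates 3 and 4. Knockout TAC replicate 4 also carries a joined library name, but neither of its parts is another library here, and it was kept.

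The libraries summed to 390453 to 432264 FPKM, 11027 to 11377 genes reached 1 FPKM in each, and read depth is unknown. Kcp itself was at 0.794 to 1.43 FPKM in wild-type sham, 0.985 to 1.48 in wild-type TAC, 0.655 to 0.673 in the modelled knockout sham libraries and 0.494 to 0.952 in knockout TAC, so it was lower but still measured in the knockout. The libraries also fall into 2 sets that nearly follow genotype: Ndufb4c was at 35.9 to 49.4 FPKM in wild-type sham replicates 1 to 4 with wild-type TAC replicates 1 to 4, and at 4.47 to 11.2 in wild-type TAC replicate 5 with all knockout libraries. Cardiomyocyte markers marked every library as heart muscle, with 11 genes that summed to 48927 to 63386 FPKM, while the atrial markers Myl7, Sln and Bmp10 had means under 1 FPKM in every group. Wild-type TAC replicate 5 and knockout TAC replicate 2 stood nearest to sham in their groups for most of the members that fell with TAC, and calls of members that change without them are given beside the results.

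More of these genes were lower than higher after TAC in both genotypes. Because the set was chosen with earlier results of these data known, the shares below describe it and do not test it. In wild type 15 of 31 tested members passed, 3 higher and 12 lower, where 21.9% of all tested genes passed, 10.7% higher and 11.2% lower. In the knockout 22 of 31 passed, 3 higher and 19 lower, where 38.8% of all tested genes passed, 21.1% higher and 17.7% lower. The median log2 change of the tested members was -0.24 in wild type and -0.35 in the knockout, against -0.01 and 0.01 over all genes tested. Of the 12 that fell in wild type, 11 also fell in the knockout, which is 91.7% of the first list and 57.9% of the second. They were Kcnd2, Kcnd3, Kcnip2, Kcnv2, Kcnh2, Kcnj2, Kcnj12, Kcnj3, Kcnj5, Kcnj11 and Abcc9, all potassium channel subunits or their partners. Kcna5 was the gene that rose in both. The libraries of sham and TAC did not overlap for 2 members higher and 12 lower in wild type, where 10.5% and 11.1% of all tested genes did so, and for 3 higher and 17 lower in the knockout, where 19.8% and 16% did.

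**Figure D1:**
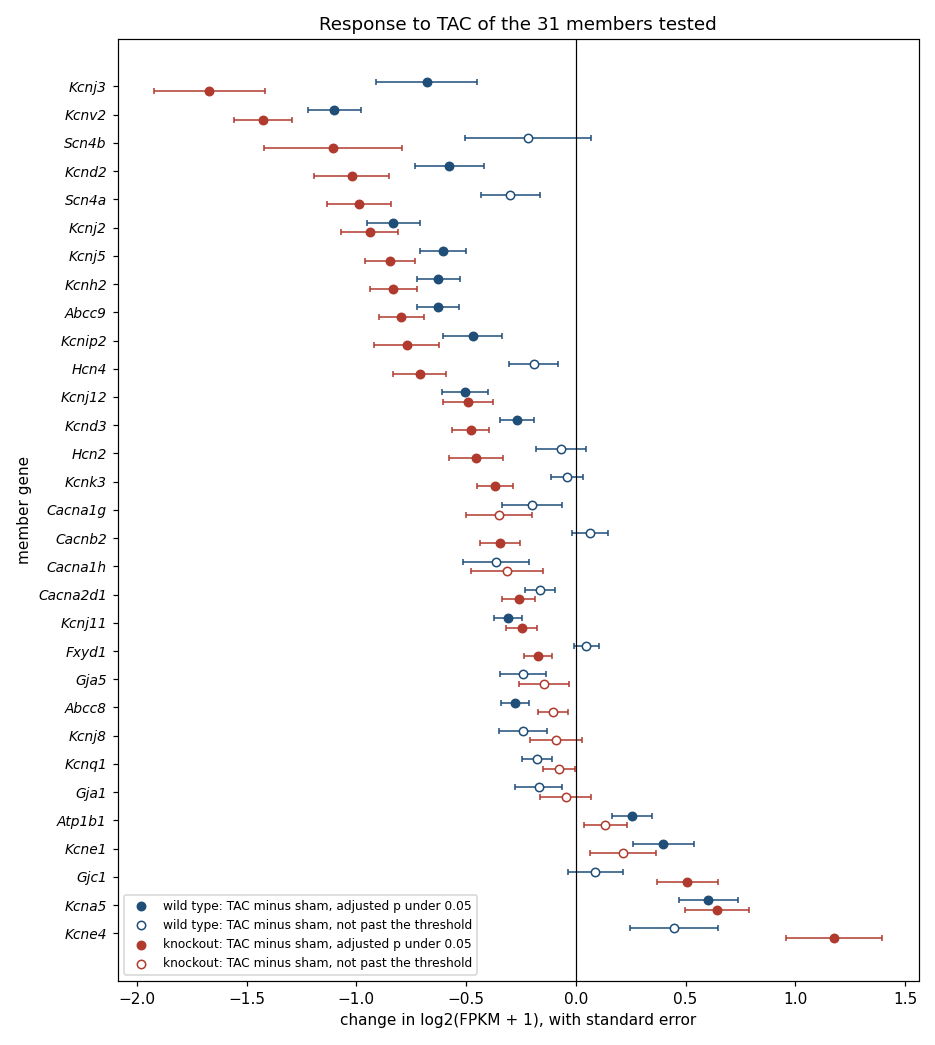
Change with TAC in log2(FPKM + 1) (x axis, bars are standard errors) for the 31 tested members (y axis), in wild type (blue) and knockout (red), filled where the limma adjusted p is under 0.05. Most points lie left of 0, and Kcnj3 and Kcnv2 lie farthest left in the knockout at -1.67 and -1.42.

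In bulk heart RNA, fewer myocytes and less RNA per myocyte cannot be told apart. The 11 cardiomyocyte markers summed to 58592 to 60764 FPKM in wild-type sham and 55244 to 58654 in wild-type TAC. They summed to 59483 to 63386 in the modelled knockout sham libraries and 48927 to 54568 in knockout TAC, and the knockout groups did not overlap. Of these 11 genes 3 rose and 4 fell in wild type, and 1 rose and 7 fell in the knockout, with a median log2 change of -0.03 and -0.23. The 8 fibroblast markers summed to 650 to 858 FPKM in wild-type sham, 742 to 1080 in wild-type TAC, 678 to 773 in knockout sham and 765 to 997 in knockout TAC. Of them 2 rose and 1 fell in wild type and 5 rose and 0 fell in the knockout, led there by the collagens Col3a1 and Col1a1 at log2 1.94 and 1.91. The 8 macrophage and leukocyte markers summed to 94.0 to 168 FPKM in wild-type sham, 121 to 189 in wild-type TAC, 116 to 124 in knockout sham and 159 to 212 in knockout TAC, and of 7 tested none passed in wild type and 3 rose in the knockout. The part of these cell types in the fall of the channel genes was not tested.

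All 3 tested genes of the transient outward channel fell in both genotypes. Kcnd2 and Kcnd3 encode its pore subunits, and Kcnip2 encodes the calcium-binding partner that brings them to the membrane. The promoters of Kcnd2 and Kcnip2, together with that of Kcnj3 described after them, are shown because these 3 genes of the transient outward and acetylcholine-gated channels fell with TAC in both genotypes. Each is the RefSeq GRCm38.p6 window from 250 bases before to 50 after an annotated start, 5′ to 3′ on the gene's strand. For Kcnj3 that start lies inside the gene's span, given with its values below, and not at its first base. Capitals mark matches to the GC box letters GGGCGG or the T-box letters AGGTGT on either strand.
Kcnd2, chr6:21215096-21215395, plus strand: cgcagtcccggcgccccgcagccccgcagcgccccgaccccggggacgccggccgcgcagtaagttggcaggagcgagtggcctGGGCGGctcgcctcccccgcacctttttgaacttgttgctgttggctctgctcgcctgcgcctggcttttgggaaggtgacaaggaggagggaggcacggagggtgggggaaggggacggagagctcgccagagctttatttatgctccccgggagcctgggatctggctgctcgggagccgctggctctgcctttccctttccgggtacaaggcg
Kcnip2, chr19:45816014-45816313, minus strand: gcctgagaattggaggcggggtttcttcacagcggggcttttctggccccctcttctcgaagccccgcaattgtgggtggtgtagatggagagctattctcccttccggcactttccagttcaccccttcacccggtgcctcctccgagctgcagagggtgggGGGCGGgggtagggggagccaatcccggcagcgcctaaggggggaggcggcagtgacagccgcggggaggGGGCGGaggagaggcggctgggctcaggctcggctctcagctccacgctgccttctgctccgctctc
Kcnj3, chr2:55435720-55436019, plus strand: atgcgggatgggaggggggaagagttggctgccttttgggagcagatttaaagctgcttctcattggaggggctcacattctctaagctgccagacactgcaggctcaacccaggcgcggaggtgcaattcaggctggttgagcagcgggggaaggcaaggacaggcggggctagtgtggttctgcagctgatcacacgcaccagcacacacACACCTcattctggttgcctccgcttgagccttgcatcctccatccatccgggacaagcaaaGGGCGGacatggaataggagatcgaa
The Kcnd2 window held 1 GC box, the Kcnip2 window 2, and the Kcnj3 window 1 GC box and 1 T-box letter match. Among 27025 promoters of the same length, 35.9% held the GC box and 13.9% the T-box letters, and 14 and 3 of the 25 members with a promoter entry held them. In all 7 motifs were searched on both strands, and the other 5 had no match in these windows. The TATA box letters TATAAA were in 14.2% of all promoters and in 2 of the 25 members' promoters. The MCAT letters CATTCC were in 14.6% and in 4. The GATA letters AGATAA were in 11.4% and in 1. The AP-1 letters TGANTCA were in 7.93% and in 1. The E-box letters CACGTG were in 7.24% and in 2. The matches are letters in a window and say nothing of what binds there.

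Kcnd2 (chromosome 6, 21215346 to 21729805) was at 6.58, 5.46, 6.23 and 4.94 FPKM in wild-type sham and 3.82, 2.70, 3.94, 4.04 and 3.36 in wild-type TAC. In the knockout it was at 4.46, 4.85 and 4.10 in sham replicates 1, 3 and 4, and at 1.28, 3.37, 1.52, 1.53 and 1.22 after TAC. Every TAC library lay below every sham library of its genotype, and knockout TAC replicate 2 sat apart from its group at a level like wild-type TAC. The log2 change was -0.58 ± 0.16 in wild type (limma, Benjamini-Hochberg adjusted p = 0.0141) and -1.02 ± 0.17 in the knockout (adjusted p = 0.000151). After TAC the knockout mean was 49.9% of the wild-type mean, a log2 difference of -0.76 ± 0.15 (limma, Benjamini-Hochberg adjusted p = 0.00467). Its 3 modelled knockout sham libraries were below all 4 wild-type sham libraries, as was so for 8.15% of all tested genes. That log2 difference of -0.31 did not pass (limma, Benjamini-Hochberg adjusted p = 0.46). Kcnd2 lies 7.74 Mb from Kcp on the same chromosome, and whether this position bears on its level was not tested.

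Kcnip2 was far more abundant per length, at 103, 92.6, 85.5 and 106 FPKM in wild-type sham and 76.0, 63.4, 53.7, 69.3 and 90.5 in wild-type TAC. Sham replicates 1, 3 and 4 of the knockout had 90.4, 110 and 93.7, and knockout TAC had 48.6, 74.4, 50.6, 57.7 and 55.9. The knockout groups did not overlap, while in wild type replicate 5 of TAC reached into the sham range. Kcnip2 fell by 0.47 ± 0.13 on the log2 scale in wild type (limma, Benjamini-Hochberg adjusted p = 0.0197) and by 0.77 ± 0.15 in the knockout (adjusted p = 0.000528). The wild-type call was lost without wild-type sham replicate 1 or 4 (limma, Benjamini-Hochberg adjusted p 0.0582 to 0.063).

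Kcnd3 changed less than Kcnd2. Its mean was 2.70 ± 0.207 FPKM in wild-type sham and 2.08 ± 0.215 after TAC (SD, n = 4 and 5), and the knockout had 2.65 ± 0.163 and 1.62 ± 0.246 (n = 3 and 5). Its log2 change was -0.27 ± 0.08 in wild type (limma, Benjamini-Hochberg adjusted p = 0.0207) and -0.48 ± 0.09 in the knockout (adjusted p = 0.000258). The wild-type call was lost without wild-type sham replicate 3 or 4 or wild-type TAC replicate 3 (adjusted p 0.0543 to 0.0651 in limma with Benjamini-Hochberg). The per-length ratio of Kcnd2 to Kcnd3 had medians of 2.17 in wild-type sham, 1.82 in wild-type TAC, 1.74 in knockout sham and 0.933 in knockout TAC. In knockout TAC the ratio was 0.812, 0.933, 1.09 and 0.829 in replicates 1, 3, 4 and 5 and 1.66 in replicate 2, so in 3 of 5 libraries Kcnd3 exceeded Kcnd2.

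**Figure D2:**
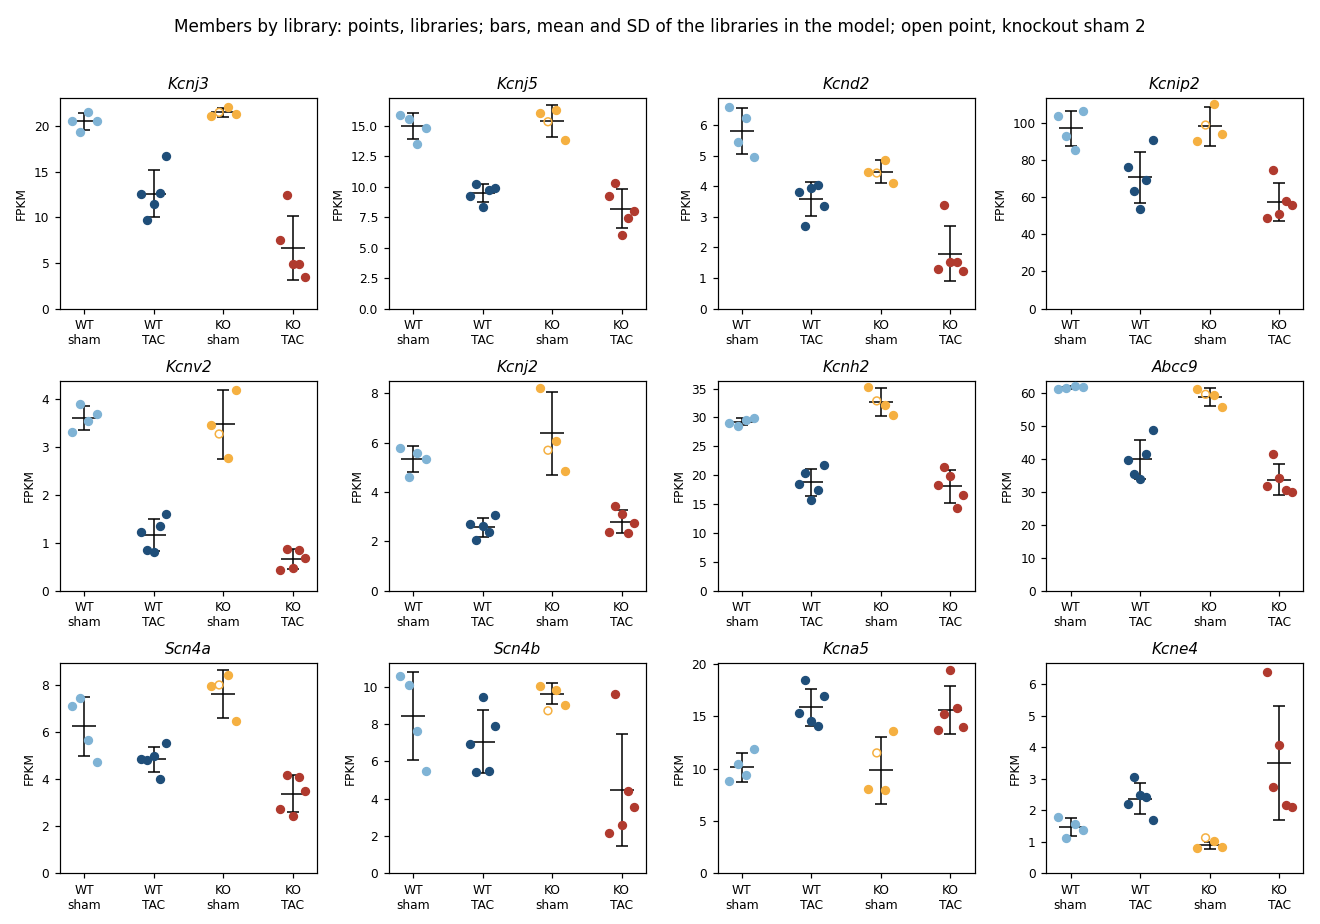
Level of selected members in every library (y axis, FPKM) by group (x axis); points are libraries, bars are the mean and SD of the modelled libraries, and the open point is knockout sham replicate 2. Kcnd2 and Kcnj3 are lowest in knockout TAC, where replicate 2 lies above the other libraries at 3.37 and 12.4 FPKM.

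Kcnv2 encodes a silent voltage-gated subunit that changes the behaviour of other potassium channels when it joins them. It was at 3.31, 3.90, 3.55 and 3.69 FPKM in wild-type sham and 1.23, 0.850, 0.812, 1.35 and 1.60 in wild-type TAC. In the knockout it was at 3.47, 2.77 and 4.20 in sham replicates 1, 3 and 4 and at 0.438, 0.877, 0.467, 0.849 and 0.694 after TAC. The TAC libraries lay well below the sham libraries in both genotypes, at 32.4% and 19.1% of the sham mean. Its log2 changes, -1.10 ± 0.12 and -1.42 ± 0.13, had limma Benjamini-Hochberg adjusted p = 1.91e-05 and 4.35e-07. Kcnv2 was lower in knockout TAC than in wild-type TAC by log2 -0.38 ± 0.11 (limma, Benjamini-Hochberg adjusted p = 0.0409), although the groups overlapped.

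Kcna5, the pore subunit of the ultra-rapid delayed rectifier, went the other way. It was at 8.78, 10.4, 9.37 and 11.9 FPKM in wild-type sham and 15.3, 18.4, 14.6, 14.1 and 16.9 in wild-type TAC. In knockout sham replicates 1, 3 and 4 it was at 8.07, 7.92 and 13.6, and knockout TAC had 13.7, 15.2, 19.5, 15.8 and 13.96. All TAC libraries were above all sham libraries of the same genotype, narrowly so in the knockout. The log2 rise was 0.60 ± 0.14 in wild type and 0.64 ± 0.15 in the knockout (limma, Benjamini-Hochberg adjusted p = 0.00435 and 0.00221). Kcna4, the pore subunit of the slow transient outward current, stayed at or under 0.613 FPKM in all 18 libraries and was too low to judge.

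Kcnh2, the pore of the rapid delayed rectifier, was at 29.0, 28.6, 29.6 and 29.9 FPKM in wild-type sham and 18.5, 20.3, 15.7, 17.4 and 21.8 in wild-type TAC. In the knockout it was at 35.3, 32.2 and 30.5 in sham replicates 1, 3 and 4 and at 18.2, 21.4, 19.9, 14.3 and 16.5 after TAC. Sham and TAC were apart in both genotypes, and the TAC libraries of the genotypes overlapped. The log2 changes were -0.63 ± 0.10 and -0.83 ± 0.11 (limma, Benjamini-Hochberg adjusted p = 0.00029 and 1.15e-05).

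Kcne4, a small accessory subunit that can dampen several voltage-gated potassium channels, had the largest rise among the members, in the knockout. It was at 1.78, 1.10, 1.57 and 1.38 FPKM in wild-type sham and 2.19, 3.05, 2.48, 2.41 and 1.69 in wild-type TAC. The modelled knockout sham libraries had 0.808, 1.01 and 0.818, and knockout TAC had 6.40, 2.75, 4.07, 2.17 and 2.09. Knockout TAC was above knockout sham in every library but spread widely, with replicate 1 highest, and the wild-type groups overlapped. The log2 change was 1.18 ± 0.22 in the knockout (limma, Benjamini-Hochberg adjusted p = 0.000414) and 0.45 ± 0.20 in wild type, which did not pass (adjusted p = 0.122). The interaction of genotype and TAC for Kcne4 was 0.73 ± 0.30 and did not pass (limma, Benjamini-Hochberg adjusted p = 0.194).

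Kcnq1 and Kcne1 encode the pore and the accessory subunit of the slow delayed rectifier. Kcnq1 had log2 changes of -0.18 ± 0.07 in wild type and -0.08 ± 0.07 in the knockout and passed in neither (limma, Benjamini-Hochberg adjusted p = 0.0728 and 0.449). The wild-type change passed without wild-type TAC replicate 5, at -0.21 ± 0.07 (limma, Benjamini-Hochberg adjusted p = 0.0353), and without knockout TAC replicate 2 as well (adjusted p = 0.0204 by limma and Benjamini-Hochberg). It also passed with the replicate number as a block and with the library set as a term (limma, Benjamini-Hochberg adjusted p = 0.0409 and 0.0353). Kcnq1 ran from 14.0 to 19.0 FPKM over the libraries in the model. Kcne1 rose in wild type, from 1.27 ± 0.364 FPKM (SD, n = 4) to 2.01 ± 0.576 (n = 5), a log2 change of 0.40 ± 0.14 (limma, Benjamini-Hochberg adjusted p = 0.0459). That call was lost without any one of wild-type sham replicates 1, 3 or 4 or wild-type TAC replicates 1, 2 or 5 (limma, Benjamini-Hochberg adjusted p 0.0533 to 0.149). The knockout means of Kcne1, 0.979 ± 0.251 FPKM in sham and 1.29 ± 0.233 with TAC, did not differ past the threshold (limma, Benjamini-Hochberg adjusted p = 0.277).

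The strong inward rectifiers, Kcnj2 and Kcnj12, which hold the resting potential of ventricular myocytes, fell in both genotypes. Kcnj2 was at 5.78, 4.60, 5.59 and 5.35 FPKM in wild-type sham and 2.69, 2.07, 2.62, 2.38 and 3.07 in wild-type TAC. For the knockout the sham values were 8.20, 6.05 and 4.87, and those after TAC were 2.38, 3.44, 3.11, 2.36 and 2.73. No TAC library reached its sham group, and the TAC ranges of the genotypes overlapped. The log2 changes were -0.83 ± 0.12 and -0.94 ± 0.13 (limma, Benjamini-Hochberg adjusted p = 0.000131 and 2.18e-05). Kcnj12 was at 9.13 ± 0.469 FPKM in wild-type sham and 6.19 ± 1.04 in wild-type TAC, and at 10.1 ± 0.894 in knockout sham and 6.91 ± 1.11 in knockout TAC. Its log2 changes of -0.50 ± 0.10 and -0.49 ± 0.11 were close to each other (limma, Benjamini-Hochberg adjusted p = 0.00221 and 0.00213).

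Kcnj3 and Kcnj5 together form the acetylcholine-gated potassium channel, best known for slowing the sinus node and the atria under vagal tone. Kcnj3 (chromosome 2, 55411798 to 55598145) was at 20.5, 19.3, 21.6 and 20.6 FPKM in wild-type sham and 12.5, 9.66, 11.5, 12.7 and 16.7 in wild-type TAC. In the knockout it was at 21.1, 22.1 and 21.3 in sham replicates 1, 3 and 4 and at 7.52, 12.4, 4.91, 4.88 and 3.47 after TAC. The sham libraries were tightly grouped in both genotypes, the TAC libraries were below them without overlap, and 4 of 5 knockout TAC libraries were below all wild-type TAC libraries. The log2 change was -0.68 ± 0.23 in wild type (limma, Benjamini-Hochberg adjusted p = 0.0476) and -1.67 ± 0.25 in the knockout (adjusted p = 9.53e-05). The wild-type call was lost without any one of wild-type sham replicates 1 to 4 or wild-type TAC replicates 1 to 4 (limma, Benjamini-Hochberg adjusted p 0.0712 to 0.105). After TAC the knockout was at 52.7% of wild type, a log2 difference of -0.92 ± 0.22 (limma, Benjamini-Hochberg adjusted p = 0.0156). Exons of Kcnj3 share 31.1% of their bases with Gm26794 on the opposite strand, and no source used here says whether the counting used strand.

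Kcnj5 was at 15.9, 15.6, 13.5 and 14.8 FPKM in wild-type sham and 9.25, 10.2, 8.33, 9.71 and 9.93 in wild-type TAC. Knockout sham replicates 1, 3 and 4 had 16.03, 16.3 and 13.9, and knockout TAC had 9.21, 10.3, 6.05, 7.46 and 8.01. Both TAC groups lay wholly below sham. The log2 changes were -0.61 ± 0.10 in wild type and -0.85 ± 0.11 in the knockout (limma, Benjamini-Hochberg adjusted p = 0.000601 and 1.69e-05). The ratio of Kcnj3 to Kcnj5 per length had medians of 1.34 in wild-type sham, 1.35 in wild-type TAC, 1.35 in knockout sham and 0.812 in knockout TAC. It reached 1.20 in knockout TAC replicate 2 and 0.433 to 0.816 in the other knockout TAC libraries, whereas wild-type TAC ran from 0.944 to 1.68. Atrial myocytes are a known site of this channel, and the 7 atrial markers summed to 13.5 to 15.9 FPKM in wild-type sham, 8.19 to 12.1 in wild-type TAC, 9.84 to 14.7 in knockout sham and 9.95 to 14.7 in knockout TAC. Much of these sums was Tbx5, with means of 9.48 and 4.41 FPKM in wild-type sham and TAC and 8.20 and 4.56 in the knockout. Of the 4 atrial markers tested, 1 rose and 2 fell in wild type and 1 rose and 1 fell in the knockout. The gene that rose in both, Dkk3, was at or under 0.795 FPKM in all sham libraries. It was tested only through the TAC libraries where it is high, and nothing is drawn from its call. The part of the atrial markers in the change of Kcnj3 was not tested.

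The ATP-sensitive channel is built from a pore, Kcnj11 or Kcnj8, and a sulfonylurea receptor, Abcc9 or Abcc8. Abcc9 was at 61.2, 61.6, 62.1 and 61.9 FPKM in wild-type sham and 39.8, 35.4, 33.8, 41.6 and 48.9 in wild-type TAC. Sham replicates 1, 3 and 4 of the knockout had 61.2, 59.4 and 55.8, and knockout TAC had 31.9, 41.6, 34.2, 30.7 and 30.1. The sham level was nearly constant, and every TAC library was lower. The log2 changes were -0.63 ± 0.10 and -0.80 ± 0.10 (limma, Benjamini-Hochberg adjusted p = 0.000212 and 1.25e-05). Kcnj11, the pore of the ventricular channel, was at 56.8 ± 0.913 FPKM in wild-type sham (SD, n = 4) and 45.8 ± 3.49 after TAC (n = 5), and the knockout had 50.7 ± 4.45 (n = 3) and 42.6 ± 2.92 (n = 5). Its log2 changes were -0.31 ± 0.06 and -0.25 ± 0.07 (limma, Benjamini-Hochberg adjusted p = 0.00264 and 0.00961), and the knockout call was lost without knockout sham replicate 3 (adjusted p = 0.0662).

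Abcc8 fell in wild type, from 11.5 ± 0.212 to 9.35 ± 0.784 FPKM, a log2 change of -0.28 ± 0.06 (limma, Benjamini-Hochberg adjusted p = 0.00457). In the knockout it was at 10.4 ± 1.27 in sham and 9.58 ± 0.167 after TAC, which did not pass (adjusted p = 0.25 by limma and Benjamini-Hochberg). The per-length ratio of Abcc9 to Abcc8 had medians of 5.42 and 4.40 in wild-type sham and TAC and 5.90 and 3.35 in the knockout. Kcnj8, a pore that vascular smooth muscle and pericytes also use, had log2 changes of -0.24 ± 0.11 in wild type and -0.09 ± 0.12 in the knockout and passed in neither (limma, Benjamini-Hochberg adjusted p = 0.128 and 0.578). The wild-type change of Kcnj8 passed at -0.28 without wild-type TAC replicate 5 and knockout TAC replicate 2 together, and at -0.24 with only the 2 groups compared (limma, Benjamini-Hochberg adjusted p = 0.0281 and 0.0389). The 11 pericyte and smooth muscle markers summed to 251.4 to 258.6 FPKM in wild-type sham, 248 to 312 in wild-type TAC, 215 to 236 in knockout sham and 204 to 274 in knockout TAC. None of their 10 tested genes passed in wild type, and 2 rose and 0 fell in the knockout.

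Kcnk3 encodes an acid-sensitive background potassium channel. It was at 65.7, 67.6, 67.4 and 71.4 FPKM in wild-type sham, 57.8, 76.5, 62.2, 59.9 and 76.2 in wild-type TAC, 80.5, 81.9 and 85.1 in knockout sham replicates 1, 3 and 4, and 61.8, 66.2, 64.2, 60.7 and 65.7 in knockout TAC. Knockout sham stood above all other modelled libraries, and the remaining groups overlapped. Kcnk3 fell in the knockout by 0.37 ± 0.08 on the log2 scale (limma, Benjamini-Hochberg adjusted p = 0.00141) and had a log2 change of -0.04 ± 0.07 in wild type (adjusted p = 0.731). Its sham difference between genotypes, 0.28 ± 0.08, did not pass (limma, Benjamini-Hochberg adjusted p = 0.126), nor did its interaction, -0.33 ± 0.11 (adjusted p = 0.118). On the opposite strand Gm9899 covers 5.76% of its exon bases, and was at most at 4.54 FPKM.

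Scn4a and Scn4b are the sodium channel members that were tested. Scn4a encodes the pore better known from skeletal muscle, and Scn4b an accessory beta subunit. Scn4a was at 7.11, 7.43, 5.63 and 4.73 FPKM in wild-type sham and 4.82, 4.79, 4.98, 4.01 and 5.53 in wild-type TAC. In knockout sham replicates 1, 3 and 4 it was at 7.95, 8.39 and 6.48, and knockout TAC had 2.71, 4.18, 2.42, 4.08 and 3.48. The knockout groups were apart and the wild-type groups overlapped. Scn4a fell in the knockout by 0.99 ± 0.15 on the log2 scale (limma, Benjamini-Hochberg adjusted p = 4.04e-05), with a wild-type change of -0.30 ± 0.13 that did not pass (adjusted p = 0.121) but did without wild-type sham replicate 4 (adjusted p = 0.0498). After TAC the genotypes differed by -0.43 ± 0.13 (limma, Benjamini-Hochberg adjusted p = 0.0376). The 8 skeletal muscle markers, with Myh4 listed at 0 in every library, summed to 1.80 to 3.21 FPKM in wild-type sham and 1.36 to 2.11 in wild-type TAC. They summed to 2.12 to 2.78 in knockout sham and 1.01 to 2.37 in knockout TAC. The 1 tested, Tnni2, fell by log2 0.54 in wild type and 0.99 in the knockout (limma, Benjamini-Hochberg adjusted p = 0.0225 and 0.000257). Its TAC means were 0.902 and 0.502 FPKM. The part of these markers in the fall of Scn4a was not tested.

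Scn4b was at 10.6, 10.1, 7.64 and 5.46 FPKM in wild-type sham and 6.96, 5.44, 9.48, 5.51 and 7.88 in wild-type TAC. In the knockout it was at 10.05, 9.85 and 9.03 in sham replicates 1, 3 and 4 and at 2.13, 9.64, 2.57, 4.40 and 3.56 after TAC. Knockout TAC replicate 2 was within the sham range, and the other 4 knockout TAC libraries were below every other modelled library. The log2 change was -1.11 ± 0.31 in the knockout (limma, Benjamini-Hochberg adjusted p = 0.0113) and -0.22 ± 0.29 in wild type (adjusted p = 0.634). Scn10a, a sodium channel of sensory neurons that is also linked to cardiac conduction, was too low to judge: it reached 1 FPKM in 2 libraries, knockout sham replicates 1 and 3 with 1.02 and 1.49. It was at 0.359 to 0.756 FPKM in wild-type sham and at or under 0.287 in all TAC libraries.

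Of the 4 tested calcium channel members none passed in wild type and 2 fell in the knockout. Cacnb2, an auxiliary subunit of the cardiac L-type channel that brings its pore to the membrane, was at 18.9 ± 1.49 FPKM in wild-type sham and 19.9 ± 2.11 after TAC (SD, n = 4 and 5), and at 21.8 ± 2.25 and 16.95 ± 1.45 in the knockout (n = 3 and 5). It fell in the knockout, with a log2 change of -0.35 ± 0.09 (limma, Benjamini-Hochberg adjusted p = 0.00557), and its wild-type change was 0.07 ± 0.08 (adjusted p = 0.613). Cacna2d1, another auxiliary subunit of that channel, fell in the knockout from 30.02 ± 2.62 to 24.9 ± 2.33 FPKM, a log2 change of -0.26 ± 0.07 (limma, Benjamini-Hochberg adjusted p = 0.0101). Without knockout sham replicate 4 that call was lost (limma, Benjamini-Hochberg adjusted p = 0.0708), and the wild-type change of -0.16 ± 0.07 did not pass (adjusted p = 0.0986).

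Cacna1g and Cacna1h encode T-type calcium channels, which are prominent in the fetal heart and in pacemaker tissue. Cacna1g had log2 changes of -0.20 ± 0.14 and -0.35 ± 0.15 and passed in neither genotype (limma, Benjamini-Hochberg adjusted p = 0.327 and 0.0734), and without knockout TAC replicate 1 it passed in the knockout. Cacna1h reached 1 FPKM in 6 modelled libraries, 3 of them wild-type sham, so it passed the filter mainly through that group. Neither of its changes passed, at -0.36 ± 0.15 and -0.31 ± 0.16 (limma, Benjamini-Hochberg adjusted p = 0.0948 and 0.143). Without knockout sham replicate 4 its knockout change passed. Cacna1d, a low-voltage L-type pore of pacemaker cells, stayed at or under 0.357 FPKM and was too low to judge.

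Both pacemaker channel genes, Hcn2 and Hcn4, fell in the knockout. Hcn4 was at 1.94, 2.73, 2.77 and 2.14 FPKM in wild-type sham and 1.40, 2.54, 1.75, 2.09 and 2.13 in wild-type TAC. The modelled knockout sham libraries had 3.19, 3.48 and 2.59, and knockout TAC had 1.78, 1.48, 1.48, 1.502 and 1.22. The knockout groups did not overlap, and the wild-type groups did. Hcn4 fell by 0.71 ± 0.12 on the log2 scale in the knockout (limma, Benjamini-Hochberg adjusted p = 0.000175), against a wild-type change of -0.19 ± 0.11 (adjusted p = 0.235). Hcn2 was at 11.4 ± 0.869 FPKM in knockout sham and 8.07 ± 0.855 in knockout TAC, a log2 change of -0.46 ± 0.12 (limma, Benjamini-Hochberg adjusted p = 0.0068), and at 8.52 ± 1.05 and 8.17 ± 1.84 in wild-type sham and TAC (adjusted p = 0.713).

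Of 6 conduction and pacemaker cell markers, Isl1 was listed at 0 in every library, and the list summed to 31.6 to 36.9 FPKM in wild-type sham, 37.3 to 42.6 in wild-type TAC, 21.7 to 32.9 in knockout sham and 34.7 to 41.9 in knockout TAC. Its 4 tested genes gave 1 rise in wild type and 1 rise and 1 fall in the knockout. The gene that rose in both was Smoc2, with means of 29.3 and 35.4 FPKM in wild-type sham and TAC and 22.2 and 33.2 in the knockout. Smoc2 thus made up most of the summed level of the list in every group. The gene that fell, Cntn2, had group means of 0.705, 0.340, 2.41 and 0.227 FPKM in the same order, with knockout sham replicates 1, 3 and 4 at 2.67, 3.23 and 1.33. Every library outside knockout sham was under 1 FPKM for Cntn2, so it entered the test only through the group where it is high, and nothing is drawn from its call. Between the sham groups the 4 tested markers had a median log2 difference of -0.07. Knockout libraries were wholly above wild type for 1, which was Cntn2, and wholly below for 2. Over all tested genes 7.27% were wholly above and 8.15% wholly below. The part of these markers in the fall of Hcn2 and Hcn4 was not tested.

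**Figure D3:**
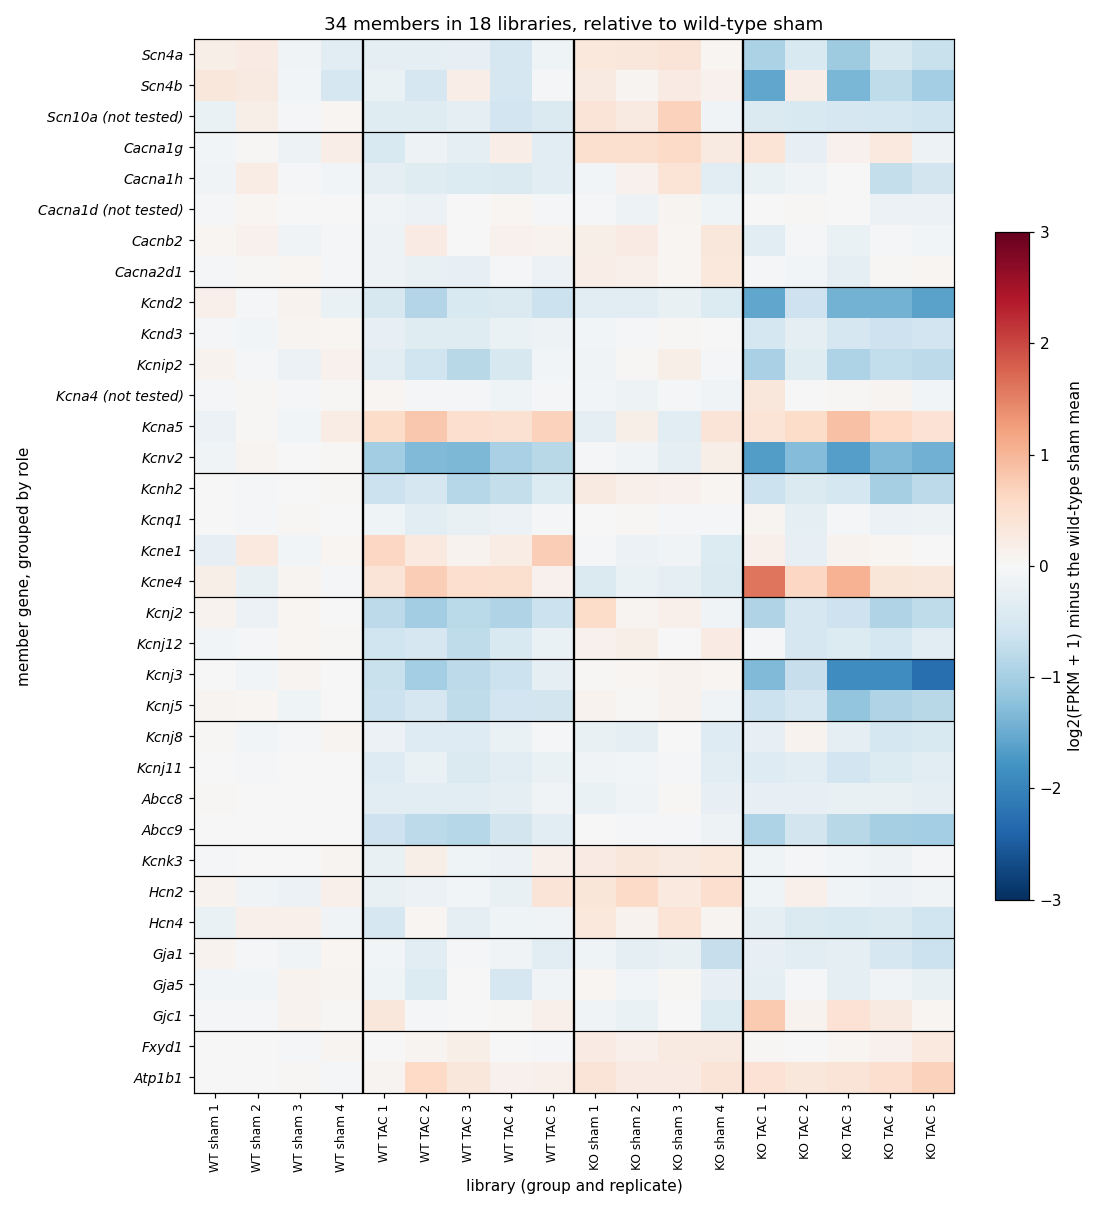
Difference of each library (columns, by group) from the wild-type sham mean in log2(FPKM + 1) for the 34 members (rows, by role), blue lower and red higher. Rows of Kcnv2, Kcnj2, Kcnj3, Kcnj5, Kcnh2 and Abcc9 are blue in all TAC columns, while Kcna5 and Kcne4 are red there, and Kcnd2 and Kcnj3 are paler in knockout TAC replicate 2 than in the other knockout TAC columns.

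Of the 3 gap junction genes none passed with TAC in wild type, and 1 rose in the knockout. Gja1 encodes Cx43, the main ventricular connexin, and was at 89.2, 79.9, 77.8 and 86.4 FPKM in wild-type sham and 77.9, 67.0, 81.2, 77.7 and 66.7 in wild-type TAC. For the knockout the sham values were 76.4, 71.0 and 51.3, and those after TAC were 70.2, 66.8, 69.2, 58.8 and 52.9. Sham and TAC overlapped in both genotypes. The log2 changes with TAC were -0.17 ± 0.11 and -0.05 ± 0.12 and did not pass (limma, Benjamini-Hochberg adjusted p = 0.272 and 0.782). Knockout sham was below wild-type sham in all 3 modelled libraries, by log2 -0.34 ± 0.12, which did not pass (limma, Benjamini-Hochberg adjusted p = 0.188).

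Gjc1, which encodes Cx45, the connexin of the early heart and of nodal cells, was at 7.12, 7.15, 8.10 and 7.64 FPKM in wild-type sham and 9.83, 7.09, 7.36, 7.72 and 8.41 in wild-type TAC. Knockout sham replicates 1, 3 and 4 had 6.91, 7.37 and 5.35, and knockout TAC had 13.5, 8.10, 10.5, 9.23 and 7.87. The knockout groups were apart, with TAC higher, and the wild-type groups overlapped. The knockout rise was 0.51 ± 0.14 on the log2 scale (limma, Benjamini-Hochberg adjusted p = 0.00686), was lost without knockout sham replicate 4 (adjusted p = 0.0542), and stood against a wild-type change of 0.09 ± 0.13 (adjusted p = 0.658). Gja5, for Cx40 of the atria, conduction system and arterial endothelium, was at 0.936 to 1.98 FPKM in the modelled libraries and passed in neither genotype (limma, Benjamini-Hochberg adjusted p = 0.109 and 0.339). Gpr89, on the opposite strand and sharing 2.87% of the Gja5 exon bases, reached 7.41 FPKM.

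Of the 2 sodium pump members 1 rose in wild type and 1 fell in the knockout. Fxyd1 encodes phospholemman, which restrains the pump, and had means of 642 ± 22.5 FPKM in wild-type sham, 664 ± 38.3 in wild-type TAC, 774 ± 6.77 in knockout sham and 688 ± 59.8 in knockout TAC. It fell in the knockout by 0.17 ± 0.06 on the log2 scale (limma, Benjamini-Hochberg adjusted p = 0.039), a call lost without any one of knockout sham replicates 1, 3 or 4 or knockout TAC replicates 1, 2 or 3 (adjusted p 0.0753 to 0.0963), and its groups overlapped. Atp1b1, the beta subunit that brings the pump to the membrane, rose in wild type from 101 ± 1.79 to 122 ± 18.8 FPKM, a log2 change of 0.26 ± 0.09 (limma, Benjamini-Hochberg adjusted p = 0.0483). That call was lost without any one of wild-type sham replicates 1 to 4 or wild-type TAC replicates 2 or 3 (limma, Benjamini-Hochberg adjusted p 0.0773 to 0.11). Atp1b1 was at 128 ± 6.67 FPKM in knockout sham and 141 ± 14.5 in knockout TAC (adjusted p = 0.289 by limma and Benjamini-Hochberg), and shares 18.7% of its exon bases with Nme7 on the opposite strand, which was at most at 2.502 FPKM.

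Between sham hearts of the genotypes no member passed in limma with Benjamini-Hochberg adjustment, where 1.26% of all genes tested did. At an unadjusted p under 0.05 there were 9 members of 31, where 14.2% of all genes tested were. The groups did not overlap for 11 members, 6 higher and 5 lower in the knockout, where 7.27% and 8.15% of all tested genes did so. Fxyd1, Kcnk3, Atp1b1 and Hcn2 had the smallest p among the higher ones, with log2 differences of 0.27, 0.28, 0.34 and 0.39 and limma Benjamini-Hochberg adjusted p = 0.0552, 0.126, 0.121 and 0.162. Fitting only these 2 groups, Fxyd1, Kcnk3 and Atp1b1 passed (limma, Benjamini-Hochberg adjusted p = 0.0222, 0.0363 and 0.0143), where 1.34% of all tested genes did. Without wild-type TAC replicate 5 and knockout TAC replicate 2, which enter through the shared spread, Hcn2 and Fxyd1 passed (limma, Benjamini-Hochberg adjusted p = 0.0201 and 0.0411). In that fit 1.73% of all tested genes passed.

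Between TAC hearts of the genotypes 4 members passed, all lower in the knockout, which is 4 of 31 where 11.3% of all tested genes passed and 4.78% were lower. They were Kcnd2, Kcnj3, Kcnv2 and Scn4a, with the values given above. No member had knockout TAC and wild-type TAC libraries without overlap, where 6.69% of all tested genes did. For Kcnd2 and Kcnj3 replicate 2 was the knockout TAC library among the wild-type ones, and for Kcnv2 and Scn4a replicates 2 and 4 were. The call of Scn4a was lost without any one of wild-type TAC replicates 1, 2, 3 or 5 or knockout TAC replicates 1, 3 or 5 (limma, Benjamini-Hochberg adjusted p 0.0517 to 0.102). That of Kcnv2 was lost without any one of wild-type TAC replicates 1, 4 or 5 or knockout TAC replicates 1, 3 or 5 (limma, Benjamini-Hochberg adjusted p 0.0574 to 0.111). Both calls were also lost with no filter and with only the 2 groups compared (limma, Benjamini-Hochberg adjusted p 0.0501 to 0.0793). Kcnd2 and Kcnj3 passed whichever single library was left out.

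Within the second library set the only wild-type TAC library is replicate 5, which was at 3.36 FPKM for Kcnd2, 16.7 for Kcnj3, 1.60 for Kcnv2 and 5.53 for Scn4a. Knockout TAC ran from 1.22 to 3.37, 3.47 to 12.4, 0.438 to 0.877 and 2.42 to 4.18 for these genes. With the set as a term in the model none of the 4 passed: the log2 differences were -0.70 for Kcnd2, -1.32 for Kcnj3, -0.65 for Kcnv2 and -0.60 for Scn4a, with limma Benjamini-Hochberg adjusted p = 0.186, 0.0777, 0.0777 and 0.169. Abcc9 passed in that fit, at -0.54 (limma, Benjamini-Hochberg adjusted p = 0.046).

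No member passed the test of whether the TAC response differed between genotypes, the interaction term in limma with Benjamini-Hochberg adjustment, where 0.93% of all tested genes did. At an unadjusted p under 0.05 there were 9 members of 31, where 18.8% of all tested genes were. The smallest adjusted p belonged to Scn4a, at -0.69 ± 0.20 (limma, Benjamini-Hochberg adjusted p = 0.0826), then Cacnb2 at -0.41 ± 0.12 (adjusted p = 0.0915), Hcn4 at -0.52 ± 0.17 (adjusted p = 0.105), Kcnk3 at -0.33 ± 0.11 (adjusted p = 0.118) and Kcnj3 at -0.99 ± 0.34 (adjusted p = 0.14). The genes that passed with TAC in the knockout and not in wild type are therefore not shown to respond differently.

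Knockout TAC replicate 2 decides several of these values. It was the highest of its group in 14 of the 19 members that fell with TAC in the knockout, and wild-type TAC replicate 5 was the highest in 10 of the 12 that fell in wild type. Without knockout TAC replicate 2 the interaction passed for Kcnj3 at -1.22 ± 0.23, Kcnd2 at -0.62 ± 0.15, Scn4b at -1.17 ± 0.29 and Scn4a at -0.76 ± 0.19 (limma, Benjamini-Hochberg adjusted p = 0.00742, 0.0223, 0.0312 and 0.0318). In that fit the interaction passed for 5.01% of all tested genes, against 0.93% in the main fit. The comparison of TAC hearts then held 9 members lower in the knockout, with Scn4b, Kcnd3, Kcnip2, Kcnj5 and Abcc9 added. Over all genes that comparison then called 1833 of 11906 (15.4%), 876 of them lower, against 11.3% in the main fit. Leaving out wild-type TAC replicate 5 as well gave interactions past the threshold for Kcnj3 at -1.12 and Kcnd2 at -0.64 (limma, Benjamini-Hochberg adjusted p = 0.00785 and 0.0316), where 3.87% of all tested genes passed. Both libraries were singled out from these same values as nearest to sham. Leaving out knockout TAC replicate 2 therefore deepens the fall in the knockout by the way it was picked, and no support is drawn from these calls.

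Lists of other channel and channel partner genes give the wider picture, with 67 of 145 listed genes tested. In wild type 15 rose and 12 fell with TAC, where 10.7% of all tested genes rose and 11.2% fell. In the knockout 19 rose and 13 fell, where 21.1% and 17.7% of all tested genes did. The median log2 changes were -0.05 and 0.01, against -0.01 and 0.01 over all genes tested. These counts include genes tested only through the group where they are high. Clcn1, the chloride channel known from skeletal muscle, fell by 1.10 and 1.84 on the log2 scale in wild type and knockout, and Ano10, of the anoctamin family, by 0.87 and 1.11. Cacng6, an auxiliary calcium channel subunit, had means of 1.73 and 0.222 FPKM in wild type and 1.61 and 0.127 in the knockout. Its TAC libraries were at or under 0.431 FPKM, so it was tested only through the sham libraries where it is high.

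Of the 10 other potassium channel genes tested, 2 rose and 1 fell in wild type and 1 rose and 2 fell in the knockout. Over all tested genes 10.7% rose and 11.2% fell in wild type, and 21.1% rose and 17.7% fell in the knockout. Kcnj14, an inward rectifier, had means of 0.424 and 1.08 FPKM in wild-type sham and TAC and 0.354 and 1.70 in the knockout. Its sham libraries reached at most 0.544 FPKM, so it entered the test only through the TAC libraries where it is high. Kcnn2, a calcium-activated potassium channel, fell in the knockout by 0.59 on the log2 scale and was lower in knockout TAC than in wild-type TAC by log2 -0.42 ± 0.09 (limma, Benjamini-Hochberg adjusted p = 0.00676). Among the 8 tested genes of the pump and FXYD list, Fxyd5 and Fxyd6 rose in both genotypes, by log2 0.81 and 0.65 in wild type and 1.24 and 1.56 in the knockout. Among 3 tested connexin and pannexin genes, Gja3 fell by 0.31 and 0.40 on the log2 scale. Panx1, a large-pore channel, had means of 0.389 and 1.44 FPKM in wild type and 0.514 and 2.80 in the knockout, and with sham libraries at or under 0.701 it too was tested only through TAC.

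Among the 18 tested partner genes, 3 were higher in knockout TAC than in wild-type TAC, where 11.3% of all tested genes passed in either direction. Irx3 and Irx5 led them. Irx5 is a homeobox repressor of Kcnd2 in the mouse ventricular wall, and Irx3 is a relative with a role in fast conduction. Irx3 was at 10.2, 9.54, 11.9 and 11.2 FPKM in wild-type sham, 9.53, 9.18, 7.30, 7.12 and 8.57 in wild-type TAC, 17.3, 13.5 and 10.002 in knockout sham replicates 1, 3 and 4, and 18.8, 12.8, 15.9, 12.95 and 15.6 in knockout TAC. Irx5 was at 3.78, 4.12, 4.43 and 4.27 in wild-type sham, 3.40, 2.98, 2.65, 2.36 and 3.40 in wild-type TAC, 7.32, 5.80 and 3.71 in knockout sham, and 6.30, 4.55, 6.10, 4.33 and 5.51 in knockout TAC. For both genes every knockout TAC library was above every wild-type TAC library, and the sham groups overlapped. The log2 differences after TAC were 0.79 ± 0.12 and 0.68 ± 0.13 (limma, Benjamini-Hochberg adjusted p = 0.00117 and 0.00378). Among the knockout TAC libraries, replicate 2 had the highest Kcnd2, 3.37 FPKM, and the lowest Irx3, and its Irx5 of 4.55 was above replicate 4 alone. Replicate 4, with the lowest Irx5 and nearly the same Irx3 as replicate 2, had Kcnd2 at 1.53 FPKM. In wild type Irx5 was lower after TAC, with means of 4.15 and 2.96 FPKM in sham and TAC, and so was Kcnd2. Any relation of Irx3 or Irx5 to Kcnd2 was not tested.

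**Figure D4:**
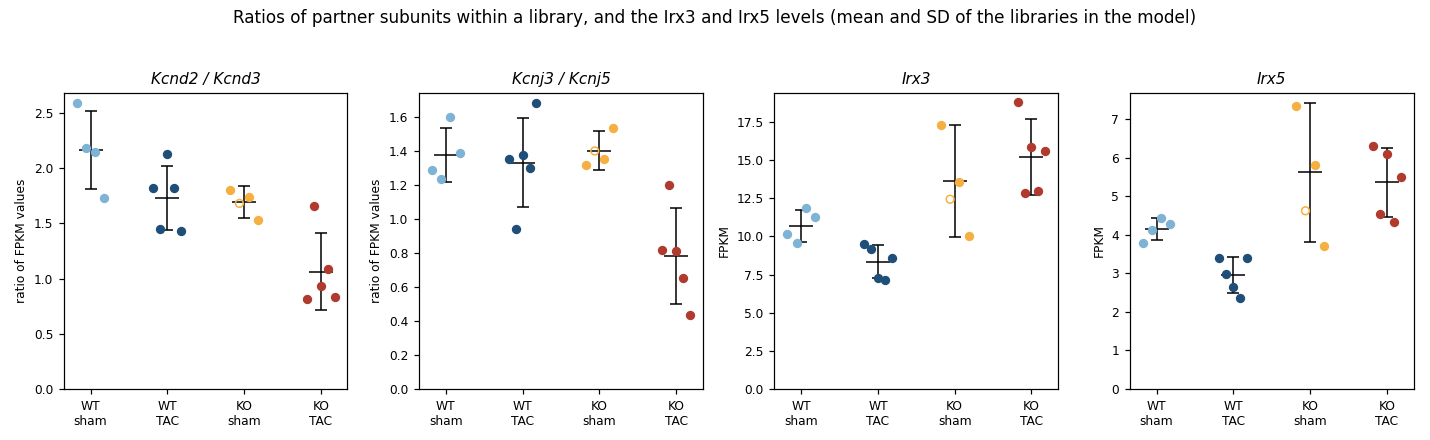
Per-length ratios between partner subunits and the levels of Irx3 and Irx5 (y axes, ratio or FPKM) in every library by group (x axis); points are libraries, bars are the mean and SD of the modelled libraries, and the open point is knockout sham replicate 2. The ratios of Kcnd2 to Kcnd3 and Kcnj3 to Kcnj5 are lowest in knockout TAC, with medians of 0.933 and 0.812, and both Irx genes lie higher in knockout TAC than in wild-type TAC.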

How the data were processed

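Heart RNA of 18 mouse libraries was sequenced from SMARTER mRNA libraries made from 1.3 ug of total RNA, per the labels' protocols. The authors deposited 1 table of 34714 genes with values whose unit was inferred as FPKM: they were not whole numbers, and their length-weighted totals were nearly equal between libraries. The build was mm10, per the submitters' processing notes, and no source used here names the aligner or counter. Low values did not fall on steps of whole reads, so reads were not recovered and depth is unknown.

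The analysis scale was log2(FPKM + 1). Every gene that reached 1 FPKM in 3 or more of 17 libraries was fitted in 1 model with limma 3.58.1 (R 4.3.3), with 1 mean per group, trend and robust moderation, and Benjamini-Hochberg adjustment over 11937 genes at 0.05. There were 5 comparisons: TAC against sham in each genotype, genotype in sham and after TAC, and the interaction. The members, the channel lists and the marker lists were chosen with earlier results of these data known. All 34 members are accounted for, and of each other list up to 4 passing genes per comparison were candidates for naming. Coordinates and promoters are from RefSeq GRCm38.p6, exon overlaps from GENCODE, and 25 of 34 members had a promoter entry. Promoters were searched on both strands for 7 short motifs. Some cardiac channel and pump genes are not reported here. Alternatives were all 18 libraries, a replicate block, a pseudocount of 0.1, no filter, median-ratio scaling, only the 2 groups compared, the library set as a term, both TAC libraries nearest to sham left out, and each library left out in turn. The fit was tested on simulated data.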

Additional observations from a re-analysis of the deposited data

Results flagged for a closer look

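Of 102 groups of a member tested for a library set apart from the rest, 4 had one, and chance alone gives about 1 in 20. Kcnd2 was at 3.37 FPKM in knockout TAC replicate 2, above 1.22 to 1.53 in the other knockout TAC libraries. Hcn2 had 11.4 FPKM in wild-type TAC replicate 5, with the rest of its group at 7.05 to 7.96, and 9.57 in knockout TAC replicate 2, with its group at 7.41 to 7.83. Abcc8 had 10.7 FPKM in wild-type TAC replicate 5, where the 8.81 to 9.32 of its group lay lower. In all 4 cases the library was the highest of its group, and for Hcn2 wild-type TAC replicate 5 was also above every wild-type sham library.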

How the results depend on the processing

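Of 41 passing member results out of 155, none changed direction under any alternative. Called under every alternative were 10 of 15 members for TAC in wild type, 18 of 22 for TAC in the knockout and 0 of 4 for genotype after TAC. Leaving out each library in turn gave 11 to 15 calls for TAC in wild type, 20 to 22 for TAC in the knockout, 0 for genotype in sham, 2 to 9 for genotype after TAC and 0 to 4 for the interaction. Genotype in sham gave 3 calls with only the 2 groups compared and 2 without both TAC libraries nearest to sham (Hcn2 and Fxyd1). Genotype after TAC gave 2 calls with no filter, 2 with only the 2 groups compared and 1 with the library set as a term. The interaction gave 1 call with all 18 libraries (Scn4a) and 2 without both TAC libraries nearest to sham. With the replicate block it gave 1 call (Cacnb2, log2 -0.46), and the counts were 14, 21, 0 and 5 in the other comparisons. No pairing by replicate number was seen: 22 same-numbered pairs correlated at -0.24 to 0.16 in their deviations from group means, 2 of them above 0.1. The 85 differently numbered pairs correlated at -0.23 to 0.28, 10 of them above 0.1. With so few libraries in a group, these correlations cannot show that a pairing is absent.

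Over all genes, genotype in sham called 151, and 12 with the set term, 227 with all 18 libraries, and 50 to 147 with a library left out. Genotype after TAC called 1350, and 243 with the set term, 822 with only the 2 groups compared, and 663 to 1833 with a library left out. Median-ratio scaling turned its share of higher calls from 57.7% to 46.5%. The interaction called 111, and 16 with no filter, 17 with the set term, 199 with median-ratio scaling (26.6% higher against 40.5%), 300 with all 18 libraries, 345 with the block, 460 without both libraries nearest to sham, and 7 to 597 with a library left out. The interaction was not run with only the 2 groups compared, since it needs 4 groups. Depth is unknown, so what it limits could not be judged beyond the members near or under 1 FPKM.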
